A study of Mus musculus with 4 samples.

Results

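Toll-like receptors are the germline-encoded sensors with which macrophages recognise microbial lipids, proteins and nucleic acids. The genes described here are 9 of these receptors, Tlr1, Tlr2, Tlr3, Tlr4, Tlr6, Tlr7, Tlr8, Tlr9 and Tlr13, with the chaperone gene Unc93b1. They were taken from the count table by Ensembl gene ID, and all 10 were found among its 49315 genes and passed the filter on low counts. The cells were bone marrow-derived macrophages of Lyz2Cre+ mice, grown with L-cell supernatant, a source of macrophage growth factor, and polarized on day 7 for 24 hours in serum-free medium. M1 polarization, with 2 libraries, used LPS at 100 ng/ml plus interferon gamma at 50 ng/ml. M2 polarization, also with 2 libraries, used IL-4 and IL-13 at 10 ng/ml each. Lyz2Cre+ mice carry the Cre recombinase under control of the myeloid gene Lyz2, and both groups share this background. The study also used erlotinib, an EGF receptor kinase inhibitor, and whether it was given to the cells behind these 4 libraries is not labelled. Nothing in the labels ties a replicate to its own animal or culture, and the p-values therefore reflect library-to-library spread, which may be technical. Without an unpolarized library, a level that is higher in M1 can also be read as lower in M2.

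Each receptor joins a ligand-binding domain of leucine-rich repeats to an intracellular TIR domain. TLR1, TLR2, TLR4 and TLR6 sit at the cell surface. TLR2 pairs with TLR1 to bind triacylated lipopeptides or with TLR6 to bind diacylated ones, and TLR4 recognises LPS, which is itself part of the M1 stimulus. TLR3, TLR7, TLR8, TLR9 and TLR13 act in endosomes, where UNC93B1 delivers them from the endoplasmic reticulum and proteases cleave them into active form. TLR3 signals through the adaptor TRIF, TLR4 through TRIF and MyD88, and the others through MyD88.

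Library totals ran from 26806370 to 39506242 counts, and the members took 0.153% to 0.177% of them. In edgeR's quasi-likelihood test over 14656 genes, 77.2% differed between M1 and M2 at an adjusted p under 0.05, with 37.5% of tested genes higher and 39.7% lower in M1. The libraries of the groups did not overlap for 88.5% of tested genes, so neither a call nor a lack of overlap sets a gene apart here. Macrophage markers were present in every library, and 6 of 9 were higher and 3 lower in M1; their summed level was 8245 and 8235 CPM (TMM-scaled counts per 1e6) in M1 and 4929 and 4815 CPM in M2. Lyz2, the locus that drives Cre, had 25.3 and 27.3 CPM in M1 and 6.51 and 6.88 CPM in M2. The 6 markers of fibroblasts or stroma summed to 119 and 111 CPM in M1 and 1137 and 1162 CPM in M2, with 2 of them higher and 4 lower in M1. The 8 dendritic cell markers summed to 37.3 and 37.5 CPM in M1 and 3.13 and 2.84 CPM in M2, most of it Xcr1 in M1, with 5 of the 6 tested markers higher and 1 lower in M1. The B cell list stayed at 2.44 and 3.13 CPM in M1 and 5.87 and 6.79 CPM in M2, the neutrophil list at 8.51 and 9.80 CPM in M1 and 5.59 and 7.92 CPM in M2. T and NK cell markers were under 1 CPM in every library, as were those of mast cells and basophils, where Mcpt4 and Ms4a2 had no count. Whether cells of these other types were present, and what part they had in the receptor levels, was not tested. In bulk RNA fewer cells of a type and less RNA per cell cannot be told apart.

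The receptors did not move as a block. Of the 4 surface receptors, 3 were higher and 1 was lower in M1, and of the 5 endosomal receptors, 2 were higher, 2 were lower and 1 was not called. Over all tested genes 37.5% were higher and 39.7% lower in M1, so these counts do not set the receptors apart. The median log2 fold change (M1 over M2) was 1.44 over the surface receptors and -0.06 over the endosomal ones, against -0.04 over all tested genes. Fold changes ran from -2.95 for Tlr13 to 4.17 for Tlr9, so the endosomal receptors held both extremes. Unc93b1 was modestly higher in M1.

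**Figure D1:**
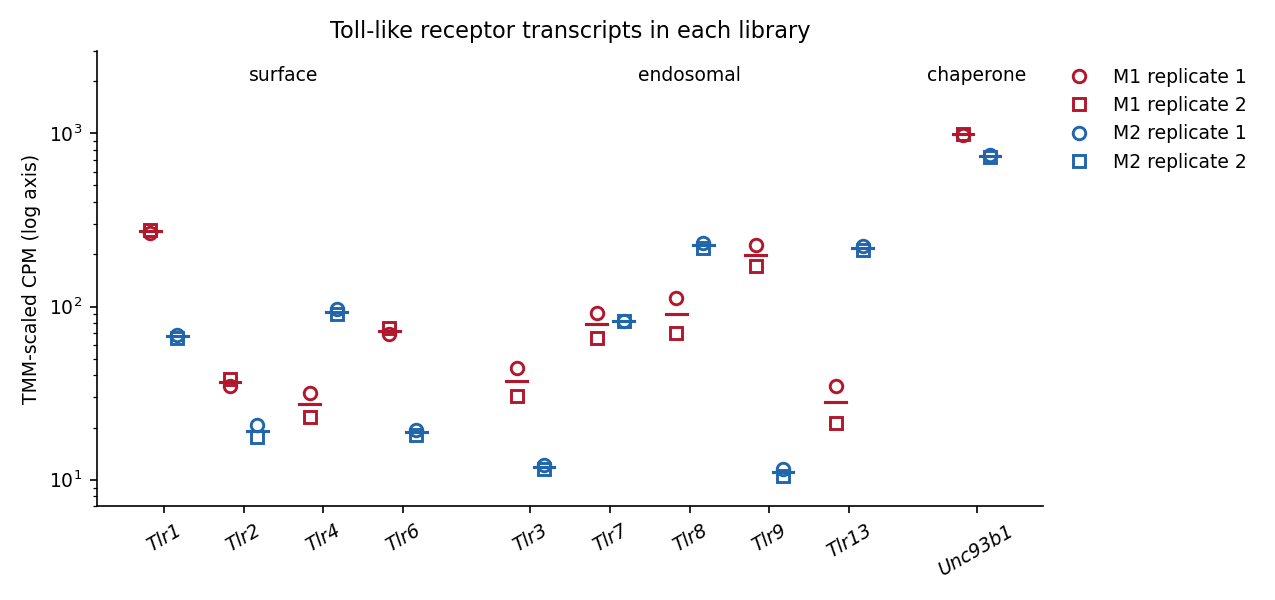
TMM-scaled CPM (log axis) of the 10 members in each library, with M1 in red left of M2 in blue; circles are replicate 1, squares replicate 2 and short lines the mean of each group. The M1 and M2 libraries stand apart for every member but Tlr7, where M2 lies between the M1 libraries.

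Among surface receptors, Tlr1 and Tlr6, the partners of TLR2 in lipopeptide recognition, were about 4 times as high in M1 as in M2. Tlr1 (ENSMUSG00000044827, GRCm38 chr5:64924679-64933563, minus strand) had 266 and 278 CPM in M1 and 68.7 and 65.6 CPM in M2. The M1 libraries were close to each other and far above M2. The fold was 4.06 (log2 fold change 2.02, SE 0.06, n = 2 each, edgeR adjusted p = 2.29e-13). Tlr6 (ENSMUSG00000051498, chr5:64952031-64960097, minus strand) had 69.0 and 74.9 CPM in M1 and 19.3 and 18.1 CPM in M2, again with no overlap. It was 3.84-fold higher in M1 (log2 fold change 1.94, SE 0.07, edgeR adjusted p = 1.52e-12). These genes lie 18.5 kb apart on the same strand and are close copies. Exact stretches of at least 50 bases shared with Tlr6 cover 24.7% of the longest coding Tlr1 transcript, and the longest such stretch runs over 229 bases. How the authors' counting treated reads from these stretches is not given in the sources used here, so the split of reads between Tlr1 and Tlr6 is uncertain. Per length, Tlr1 exceeded Tlr6 by 4.29 and 4.14 times in M1 and by 3.95 and 4.03 times in M2.

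Tlr2, the shared partner, moved less. Tlr2 (ENSMUSG00000027995, chr3:83836272-83841767, minus strand) had 34.6 and 38.2 CPM in M1 and 20.8 and 17.6 CPM in M2. The groups did not overlap, and the gene was 1.91-fold higher in M1 (log2 fold change 0.93, SE 0.09, edgeR adjusted p = 2.50e-07). Measured per length, Tlr6 stood at 1.61 and 1.58 times Tlr2 in M1 but at 0.753 and 0.833 times Tlr2 in M2. Per kilobase of coding sequence the M2 means kept this order but were close, at 7.75 for Tlr6 and 8.17 for Tlr2. Tlr1 was above Tlr2 in both, by 6.92 and 6.55 times in M1 and by 2.98 and 3.35 times in M2.

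Tlr4, the LPS receptor, was the only surface receptor of the 4 that was lower in M1. Tlr4 (ENSMUSG00000039005, chr4:66827584-66930284, plus strand) had 31.5 and 22.9 CPM in M1 and 96.3 and 90.2 CPM in M2. Both M1 libraries lay far below M2, although they differed from each other. The gene was 3.41-fold lower in M1 (log2 fold change -1.77, SE 0.14, edgeR adjusted p = 2.11e-05). Cd14 and Ly96, its co-receptors, were both higher in M1, by very different amounts. Cd14, which hands LPS to the receptor complex, had 3035 and 3241 CPM in M1 and 37.2 and 33.3 CPM in M2, a log2 fold change of 6.48 (SE 0.10). Ly96, which encodes the LPS-binding subunit MD-2, had 23.2 and 24.4 CPM in M1 and 16.9 and 16.0 CPM in M2, a log2 fold change of 0.53 (SE 0.08) that was not called under total-count scaling (0.08, edgeR adjusted p = 0.376). Cd180, a receptor of the same family that restrains TLR4, fell with it in M1, by 1.07 on the log2 scale, as did its partner Ly86 by 0.37.

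**Figure D2:**
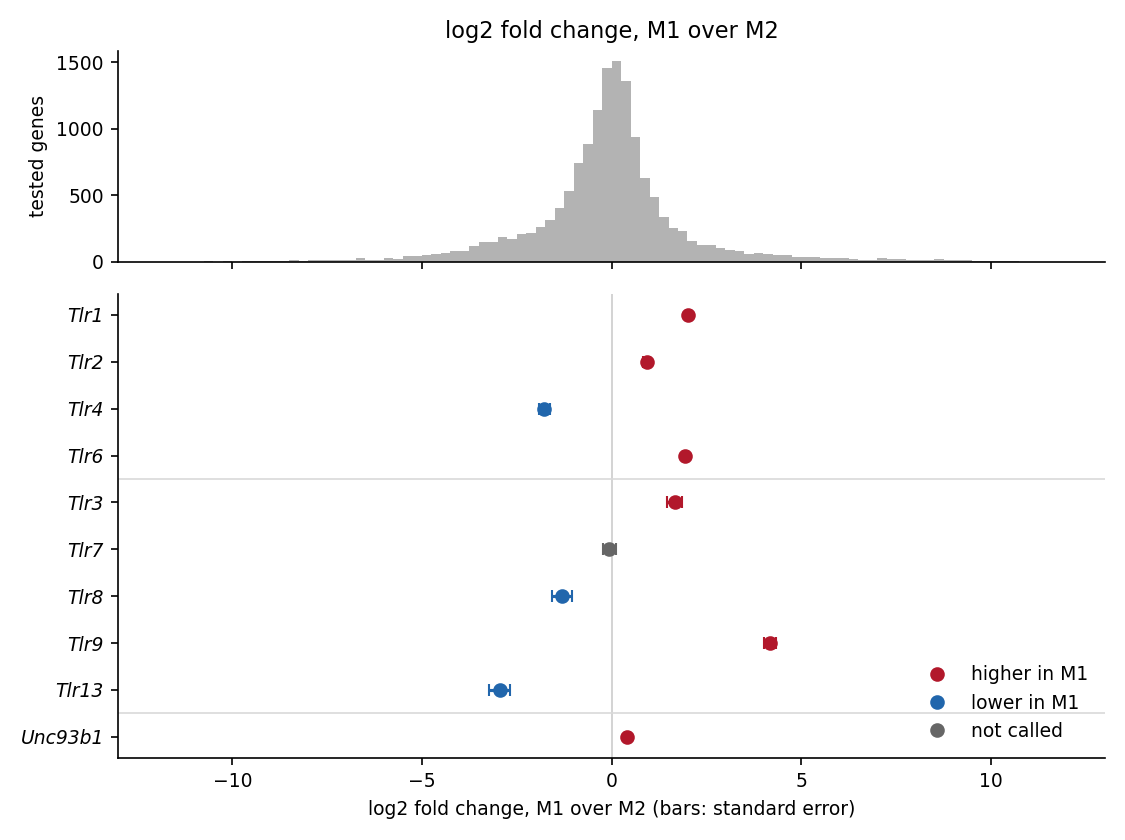
Upper panel: number of tested genes by log2 fold change, M1 over M2. Lower panel: log2 fold change of each member with its standard error as a bar, grouped as surface receptors, endosomal receptors and Unc93b1, coloured by call. Tlr9 at 4.17 and Tlr13 at -2.95 are the outermost of the members.

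Sequence upstream of the transcription start was read for the members with a RefSeq promoter window (GRCm38), which were 7 of the 10; Tlr4, Tlr7 and Unc93b1 had no window. The 250 bases before each start were searched on both strands for 5 motifs. The STAT6-type motif was TTC and GAA with any 4 bases between them, held by 5.85% of all 32851 windows. The motif of interferon regulatory factors was GAAA, any 2 bases and GAAA again, held by 2.98%. The NF-kappaB motif was GGGA, any base, TT, any base and CC, held by 0.98%. The motif of PU.1, a myeloid lineage factor, was GAGGAAGT, held by 2.44%, and the AP-1 motif was TGA, any base and TCA, held by 6.75%. No motif contains another, but matches can overlap, as the pair at Tlr6 does. A match is a description of letters and does not show binding. The stretches below are shown because they surround matches at 3 surface receptors that were higher in M1; they run 5′ to 3′ on the gene's strand, capitals mark the matched bases, and none holds an annotated exon base. Tlr1 and Tlr6 each have 2 windows: the Tlr1 stretch precedes the outer start, while the Tlr6 stretch precedes an inner start and lies in an intron of the gene as annotated.
Tlr1, chr5:64933564-64933606, minus strand, PU.1 motif: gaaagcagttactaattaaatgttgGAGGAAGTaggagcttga
Tlr2, chr3:83841768-83841805, minus strand, NF-kappaB motif: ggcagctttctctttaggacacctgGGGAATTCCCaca
Tlr6, chr5:64959242-64959307, minus strand, 2 overlapping interferon regulatory factor motifs on the opposite strand: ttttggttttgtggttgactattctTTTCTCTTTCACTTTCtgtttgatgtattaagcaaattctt
The NF-kappaB letters at Tlr2 match on both strands and lie at positions -172 to -163, counted back from the transcription start of the window. That start lies inside Tlr2 as annotated, and 159 of the 250 bases of the window are annotated exon. The other window of Tlr1 and the outer window of Tlr6 held none of the 5 motifs.

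Among endosomal receptors, Tlr9, the sensor of unmethylated CpG DNA, showed the largest fold of the 10 members. Tlr9 (ENSMUSG00000045322, chr9:106222598-106226883, plus strand) had 225 and 170 CPM in M1 and 11.6 and 10.6 CPM in M2. The lower M1 library was still more than 10 times above either M2 library. The gene was 18.0-fold higher in M1 (log2 fold change 4.17, SE 0.16, edgeR adjusted p = 1.17e-06), above 96.4% of tested genes. Of the dendritic cell markers, 5 of 6 tested were also higher in M1 and Zbtb46 was lower, where 77.2% of all tested genes were called. The most abundant, Xcr1, had 30.9 and 31.9 CPM in M1 and 0.0638 and 0.0868 CPM in M2. The other markers higher in M1 were low, at no more than 2.85 CPM in any library. Whether dendritic cells were present or had a part in the Tlr9 level was not tested. Tlr3, the receptor for double-stranded RNA, was also higher in M1. Tlr3 (ENSMUSG00000031639, chr8:45395665-45411080, minus strand) had 44.1 and 30.3 CPM in M1 and 12.1 and 11.5 CPM in M2, without overlap. It was 3.17-fold higher in M1 (log2 fold change 1.66, SE 0.19, edgeR adjusted p = 5.22e-04). The antisense gene Gm45542 overlaps 7.32% of the Tlr3 exon bases, and it had at most 4 counts in any library. How reads in this overlap were counted is not given, so that low count does not show that the Tlr3 count is unaffected.

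Tlr13 and Tlr8 went the other way. Tlr13, which recognises bacterial ribosomal RNA in the mouse and has no human counterpart, is encoded on the X chromosome (ENSMUSG00000033777, chrX:106143204-106160493, plus strand). It had 34.9 and 21.1 CPM in M1 and 223 and 213 CPM in M2, and no M1 library came near M2. It was 7.74-fold lower in M1 (log2 fold change -2.95, SE 0.27, edgeR adjusted p = 0.00218). Tlr8 (ENSMUSG00000040522, chrX:167242696-167264329, minus strand), a sensor of RNA breakdown products best known from human cells, had 111 and 70.4 CPM in M1 and 232 and 219 CPM in M2. The M1 libraries were unequal but both lay below M2, and the gene was 2.48-fold lower in M1 (log2 fold change -1.31, SE 0.27, edgeR adjusted p = 0.0232).

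Tlr7, the neighbour of Tlr8 and a receptor for single-stranded RNA, was the member that was not called. Tlr7 (ENSMUSG00000044583, chrX:167304929-167330558, minus strand) lies 40.6 kb from Tlr8. It had 92.3 and 65.6 CPM in M1 and 82.6 and 82.0 CPM in M2, so the M2 libraries fell between those of M1. The log2 fold change was -0.06 (SE 0.17, edgeR adjusted p = 0.787). This value rested on which M1 library was used: it was -0.32 without M1 replicate 1 (edgeR adjusted p = 8.23e-08) and 0.17 without M1 replicate 2 (edgeR adjusted p = 0.00275), in fits that assume the lone M1 library varies as the M2 libraries do. Scaling to total counts also made it a call, at -0.51 (edgeR adjusted p = 0.0279). Per length, Tlr8 stood at 1.37 and 1.22 times Tlr7 in M1 and at 3.20 and 3.04 times Tlr7 in M2.

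Motif matches at the endosomal receptors lay in the windows of Tlr3, Tlr8 and Tlr9. The stretches shown surround the matches at Tlr9, the receptor with the largest rise in M1, and at Tlr8, which was lower in M1; capitals again mark the matched bases, 5′ to 3′ on the gene's strand.
Tlr9, chr9:106222515-106222571, plus strand, AP-1 motif: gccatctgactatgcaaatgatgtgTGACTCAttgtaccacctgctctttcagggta
Tlr8, chrX:167264372-167264431, minus strand, STAT6-type motif: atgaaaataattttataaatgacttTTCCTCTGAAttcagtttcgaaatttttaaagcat
At Tlr3, the bases GGGAGTTTCC matched the NF-kappaB motif at positions -211 to -202, in an annotated exon. The whole Tlr3 window lies inside the gene as annotated, and 178 of its 250 bases are annotated exon. The sequence before the annotated 5′ end of Tlr3 was therefore not searched. The Tlr13 window held none of the 5 motifs. No interferon regulatory factor motif was found in the windows of Tlr3, Tlr8, Tlr9 or Tlr13. A missing match says only that these letters are not in this window.

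Unc93b1, the chaperone that endosomal receptors need to leave the endoplasmic reticulum, was the most abundant member. Unc93b1 (ENSMUSG00000036908, chr19:3935186-3949340, plus strand) had 977 and 997 CPM in M1 and 749.8 and 733 CPM in M2. The groups did not overlap, and the gene was 1.33-fold higher in M1 (log2 fold change 0.41, SE 0.07, edgeR adjusted p = 4.99e-05). This direction depended on the scaling: with libraries scaled to total counts, which lowers every gene by 0.45 log2 units in M1 against TMM, it was -0.03 and not called (edgeR adjusted p = 0.633). Relative to the summed length-scaled level of the 5 endosomal receptors, Unc93b1 stood at 2.39 and 3.45 times in M1 and at 1.74 and 1.78 times in M2.

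Levels of different genes were compared as RPKM, here the TMM-scaled CPM divided by the kilobases of annotated exon. In M1 the order of mean RPKM was Unc93b1 (326 ± 4.73, SD, n = 2), Tlr1 (81.3 ± 2.55), Tlr9 (56.9 ± 11.1), Tlr8 (25.4 ± 8.08), Tlr7 (19.3 ± 4.64), Tlr6 (19.3 ± 1.11), Tlr2 (12.1 ± 0.845), Tlr3 (7.14 ± 1.87), Tlr13 (6.50 ± 2.26) and Tlr4 (4.89 ± 1.10). Neighbours in this order overlapped from Tlr8 to Tlr6 and from Tlr3 to Tlr4. In M2 the order of mean RPKM was Unc93b1 (245 ± 3.98), Tlr8 (63.0 ± 2.62), Tlr13 (50.7 ± 1.62), Tlr7 (20.2 ± 0.113), Tlr1 (20.1 ± 0.644), Tlr4 (16.8 ± 0.780), Tlr2 (6.37 ± 0.740), Tlr6 (5.03 ± 0.227), Tlr9 (3.18 ± 0.205) and Tlr3 (2.27 ± 0.0821), and only Tlr7 and Tlr1 overlapped. Tlr9 was thus second among receptors in M1 and next to last in M2, and Tlr13 was next to last in M1 and second in M2. Per kilobase of coding sequence instead of exon, 5 members changed rank in M1 and 6 in M2, among them Tlr13, which then stood level with Tlr8 at the head of the receptors in M2.

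The summed RPKM of the 9 receptors was 250.2 and 215 in M1 and 192.5 and 183 in M2. Surface receptors summed to 115 and 120.0 RPKM in M1 and 49.9 and 46.6 RPKM in M2. They made up 46.0% and 55.7% of the receptor total in M1 and 25.9% and 25.5% in M2. Endosomal receptors summed to 135 and 95.4 RPKM in M1 and 143 and 136 RPKM in M2, with one M1 library near the M2 level and the other below it. Within the endosomal receptors the make-up turned over: Tlr9 held 25.9% and 22.7% of the receptor total in M1 and 1.73% and 1.66% in M2, while Tlr13 held 3.24% and 2.28% in M1 and 26.9% and 27.1% in M2. The ratio of Tlr9 to Tlr13 was 7.99 and 9.99 in M1 and 0.0641 and 0.0612 in M2.

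**Figure D3:**
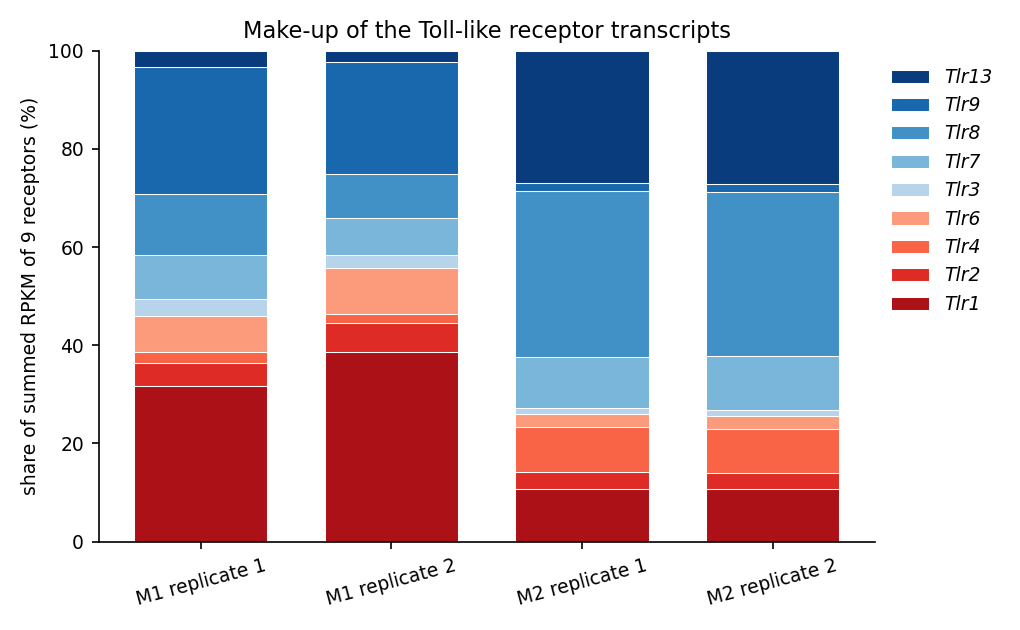
Share of each receptor in the summed RPKM of the 9 receptors (%), one stacked bar per library, with surface receptors in red at the bottom and endosomal receptors in blue above. Tlr1 and Tlr9 fill most of the M1 bars, and Tlr8 and Tlr13 most of the M2 bars.

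The M1 libraries differed from each other in the endosomal receptors and Tlr4 but not in the other members. On the log2 scale of replicate 2 over replicate 1, Tlr13 differed by -0.72, Tlr8 by -0.66, Tlr3 by -0.54, Tlr7 by -0.49, Tlr4 by -0.46 and Tlr9 by -0.40. Each of these 6 lay below the middle 95% of the 9159 tested genes of at least 5 CPM, which ran from -0.36 to 0.33. Tlr1, Tlr2, Tlr6 and Unc93b1 differed by 0.06, 0.14, 0.12 and 0.03. In M2 the members differed by -0.01 to -0.24, and Tlr2 alone lay outside the middle 95% of genes, at -0.24 against a range of -0.19 to 0.19. Leaving out either M1 library kept the direction of the 5 besides Tlr7. Tlr13 then ranged from -3.36 to -2.64, Tlr8 from -1.68 to -1.01 and Tlr4 from -2.02 to -1.56. Tlr3 ranged from 1.37 to 1.91 and Tlr9 from 3.96 to 4.36. These fits take their spread from the M2 libraries alone, so a call in them does not bear on the M1 spread. What set the M1 libraries apart was not tested.

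**Figure D4:**
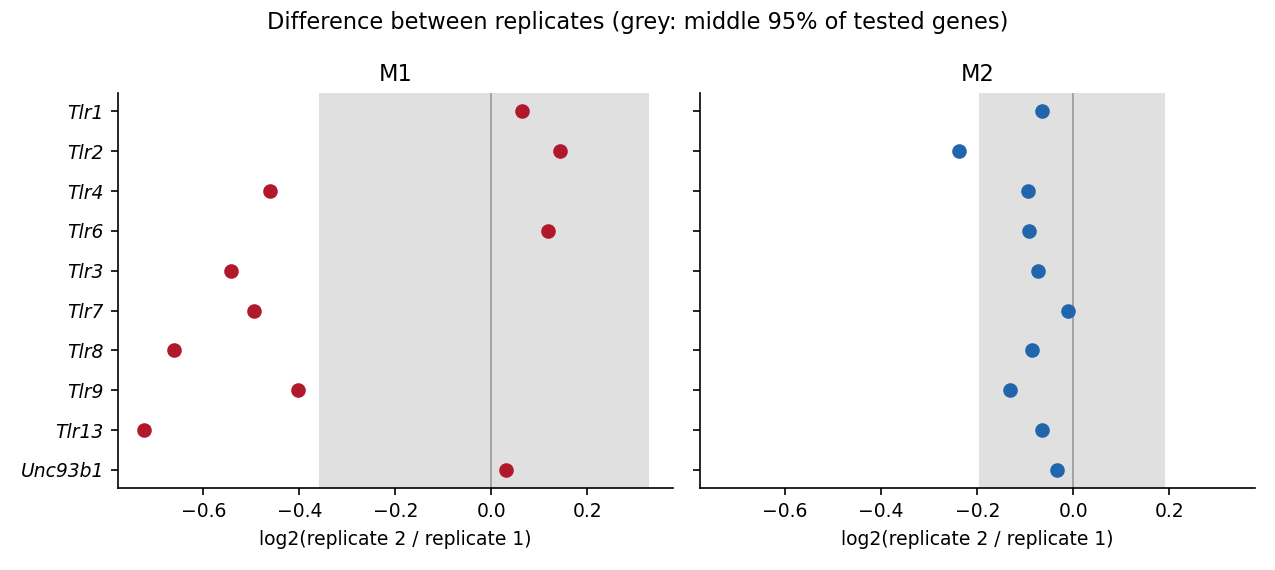
log2 ratio of replicate 2 to replicate 1 for each member in M1 (left) and M2 (right); the grey band is the middle 95% of tested genes of at least 5 CPM. In M1 the 5 endosomal receptors and Tlr4 lie left of the band, from -0.72 to -0.40.

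The other Toll-like receptor genes of the mouse were close to absent. Tlr12 had 13 and 10 counts in M1 and 1 and 5 counts in M2, a ratio of pooled scaled counts, M1 over M2, of 5.52 (95% interval 2.19 to 16.6). Tlr11, like Tlr12 a receptor for the parasite protein profilin, had 1 and 1 counts in M1 and 8 and 9 in M2, a ratio of 0.169 (95% interval 0.0190 to 0.714). Tlr5, the flagellin receptor, had 1 and 0 counts in M1 and 2 and 4 in M2, with an interval of the ratio that takes in no difference (0.00522 to 1.98). These intervals cover counting error only. At under 0.5 CPM in every library, all 3 were far below the members.

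Genes that process endosomal receptors and break down their ligands were mostly lower in M1. Of 6 endosomal proteases that can process these receptors, 1 was higher and 5 were lower in M1, with a median log2 fold change of -2.04. Ctsl had 247 and 199 CPM in M1 and 1272 and 1347 CPM in M2 (log2 fold change -2.55, SE 0.10), and Ctsk fell most, by 3.95. Lgmn, the asparagine endopeptidase, was the one that rose, by 0.33 (edgeR adjusted p = 0.00983), and it was not called under total-count or upper-quartile scaling. Of 8 tested genes of nucleic acid breakdown and nucleoside export, 2 were higher and 6 lower in M1 (median -1.29). Dnase2a, the lysosomal DNase, had 32.5 and 31.0 CPM in M1 and 211.6 and 216 CPM in M2 (log2 fold change -2.75, SE 0.07), and Acp5 fell by 3.36. Rnaset2b and Rnaset2a, lysosomal RNases, rose in M1 by 2.61 and 2.03, but they are close copies and their values are uncertain. Of 14 folding and trafficking genes, 3 were higher, 7 were lower and 4 were not called (median -0.15). The chaperone Hsp90b1, needed for folding of most Toll-like receptors, had 1151 and 1207 CPM in M1 and 733 and 727.5 CPM in M2 (log2 fold change 0.69, SE 0.07). Its co-chaperone Cnpy3 rose by 0.49 but was not called under total-count scaling (0.04, edgeR adjusted p = 0.556). The small GTPases Rab7b and Arl8b fell by 0.83 and 0.79. Under total-count scaling only 1 of the 14 was higher and 12 were lower in M1. Among 7 tested co-receptors and accessory proteins, 2 were higher and 5 lower in M1, as Cd36, which assists TLR2 and TLR6, fell by 4.65 and the bridging protein Mfge8 fell by 3.70.

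Genes downstream of the receptors were mostly higher in M1. Of 20 tested adaptors and kinases, 16 were higher, 3 were lower and 1 was not called, with a median log2 fold change of 0.85 against -0.04 over all tested genes. Irak2, a kinase of the MyD88 complex, had 347 and 346 CPM in M1 and 36.1 and 33.7 CPM in M2 (log2 fold change 3.31, SE 0.07), and the kinase Ikbke rose by 3.13. Tab1 and Irak1 fell, by 0.64 and 0.42. All 7 listed transcription factors were higher in M1 (median 1.84). Under total-count scaling 6 of these 7 were called higher in M1, as were 13 of the 20 adaptors and kinases. Irf7 had 2829 and 2398 CPM in M1 and 10.6 and 9.99 CPM in M2 (log2 fold change 7.99, SE 0.12), and Nfkb1 rose by 2.33. Of 11 genes that restrain the receptors, 7 were higher, 2 were lower and 2 were not called (median 1.16). With total-count scaling 5 of the 11 were higher in M1. Tnfaip3, the deubiquitinase A20, had 644 and 670.0 CPM in M1 and 42.0 and 39.2 CPM in M2 (log2 fold change 4.02, SE 0.08), and the inactive kinase Irak3 rose by 3.72. Il1rl1 and Rnf170, an E3 ligase that targets TLR3, fell by 2.08 and 0.37. The calls in this paragraph and the one before are from edgeR's quasi-likelihood test across all genes, and 77.2% of all tested genes were called. Genes named in both paragraphs were picked for the largest called changes each way in their lists.

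**Figure D5:**
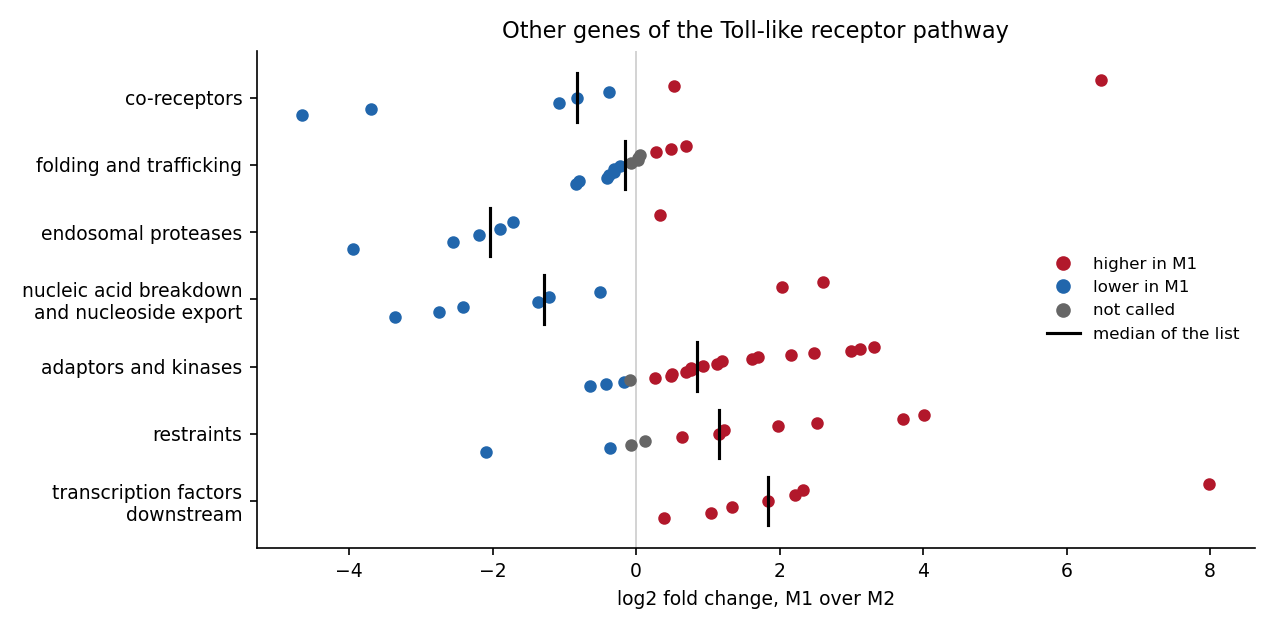
log2 fold change, M1 over M2, of each tested gene of the pathway lists, one row per list, coloured by call and offset vertically to stay apart, with the list median as a black bar. The 5 proteases on the M2 side lie between -3.95 and -1.72, and all 7 transcription factors lie to the right of 0.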

How the data were processed

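Poly(A) RNA of the 4 libraries was sequenced as paired reads, and the library kit named in the labels' protocols does not mark strand. The authors deposited whole-number read counts per Ensembl gene, not normalized. Per the submitters' processing notes, Trimmomatic 0.36, STAR 2.5.2b, featureCounts (Subread 1.5.2) and the build GRCm38 were used, with no role or setting stated. The deposited comparison table was not used, because it gives symbols without gene IDs. Gene IDs were matched to GENCODE vM21: 49056 of 49315 had a symbol.

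The comparison was fitted with edgeR 4.0.16 in R 4.3.3, with filterByExpr (minimum count 10, total 15), TMM scaling, a robust quasi-likelihood F test, two-sided, and Benjamini-Hochberg adjustment over 14656 genes. Standard errors are the absolute log2 fold change over the square root of F. The fit was tested on simulated data. Alternatives were other scalings and filters, DESeq2 1.42.0, limma-voom (limma 3.58.1), a non-robust spread and each library left out. Replicate numbers follow accession order and pair nothing.

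The members, lists and motifs were chosen with earlier results of these data known. Named besides the members were, per list, up to 2 called genes each way with the largest fitted change and a mean of at least 1 CPM. Such genes are the extremes of their lists and not typical of them. The nearest tested coding genes were also named. For Tlr9 and Tlr13, so were the 3 genes of at least 5 CPM with the closest centred log2 profile. Cd180, Ly86, Lyz2, Xcr1, Zbtb46, Mcpt4, Ms4a2 and Gm45542 were chosen after their values were seen. One planned motif and 1 marker gene are not reported here. A comparison of protein sequences planned for the members was not run, and shared transcript stretches were used in its place.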

Additional observations from a re-analysis of the deposited data

How the results depend on the processing

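Over 13 alternative scalings, filters, tests and sets of libraries, the 8 members called besides Unc93b1 kept their direction in every one. They kept their call in every one that used all libraries. With 1 library left out, the spread came from the other group alone, so calls there are not counted. Under total-count scaling Unc93b1 was -0.035 and Tlr7 -0.507, and the genes higher in M1 numbered 3342, against 5495 with TMM; 28.1% of calls were then higher in M1, against 48.6% with TMM and 39.2% with upper-quartile scaling, because these scalings move all genes by -0.448 and -0.185 log2 units. Leaving out 1 library at a time, Tlr7 ranged from -0.324 to 0.169. Lgmn turned to -0.121 under total-count scaling. Under the same scaling the lower-in-M1 counts were 12 instead of 7 for folding and trafficking, 5 instead of 3 for adaptors and kinases and 4 instead of 2 for restraints, and 1 co-receptor instead of 2 was higher. Lgmn being lost, 0 instead of 1 proteases were higher under total-count and upper-quartile scaling. Tlr12 was not tested with a filter of 1 CPM, and Tlr11 was called lower in M1 with no filter. Per coding length, 5 members in M1 and 6 in M2 took another rank, and the surface share in M2 was 31.29% and 30.82%. No paired analysis was possible because the labels give no replicate numbers that tie M1 to M2 libraries. With 2 libraries a group, an exact permutation test of a single value cannot pass 0.05.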

Other observations

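Some genes next to the members on the chromosome shared the direction of the member and others did not. Fam114a1, 9.97 kb from Tlr6, averaged 143 CPM in M1 and 24.5 CPM in M2 (log2 fold change 2.54, SE 0.07) beside 1.94 for Tlr6 and 2.02 for Tlr1, and Klf3 on the other side of the pair was higher in M1 by 0.53. Beside Tlr2, Tmem131l was higher in M1 (log2 fold change 0.70) and Sfrp2 was lower (-5.88), at 0.0547 CPM in M1 and 3.44 CPM in M2. Beside Tlr4, Trim32 was lower in M1 (-1.25) and Cdk5rap2 was not called (0.14), at distances of 1211 and 3287 kb. Beside Unc93b1, Aldh3b1 was higher in M1 (0.35) and Acy3 was lower (-1.57), at 0.267 CPM in M1 and 0.853 CPM in M2. Tlr9 lies between Twf2 and Alas1, at 7.21 and 6.57 kb. Twf2 averaged 69.3 CPM in M1 and 71.1 CPM in M2 and was not called, and Alas1 was lower in M1 by 0.23 on the log2 scale, beside a Tlr9 value of 4.17. Both neighbours of Tlr3 were lower in M1 while Tlr3 was higher, but both had low levels. Fam149a averaged 0.642 CPM in M1 and 3.38 CPM in M2 (log2 fold change -2.36). Sorbs2 averaged 0.330 CPM in M1 and 2.95 CPM in M2 (-3.21). The Tlr7 and Tlr8 pair lies between Tmsb4x, which averaged 10466 CPM in M1 and 1396 CPM in M2, and Prps2, which averaged 4.43 CPM in M1 and 33.0 CPM in M2. Tlr13 was lower in M1, and its neighbours were not: Atp7a (log2 fold change 0.13) was not called and Pgk1 rose by 1.94.

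Among 9276 protein-coding genes of at least 5 CPM, those with the centred log2 profile closest to Tlr9 over the 4 libraries were Ifih1, Dst and Il15, at distances of 0.0885, 0.0949 and 0.114 log2 units. Ifih1, which encodes the cytosolic RNA sensor MDA5, had 544 and 428 CPM in M1 and 30.1 and 28.6 CPM in M2, so it shared both the fold and the lower level in M1 replicate 2. Closest to Tlr13 were Parva, Phldb2 and Neurl2, at 0.163, 0.214 and 0.232. With 4 libraries in 2 groups this likeness is a description.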
